A study of Mus musculus with 12 samples.

Results

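The Wnt ligands, their Frizzled receptors, the coreceptors Lrp5 and Lrp6, the secreted antagonists of the Sfrp and Dkk families and the target genes Axin2 and Lef1 were examined in brains of mouse embryos that lack NSD2, an enzyme that dimethylates histone H3 at lysine 36 (H3K36me2). Members were taken by gene symbol. The rule found 42 of the 46078 genes in the count tables, with 41 distinct symbols: 19 ligands, 11 receptor entries, 2 coreceptors, 8 antagonists (4 Sfrp and 4 Dkk genes) and 2 targets. Fzd6 is listed under 2 identifiers, and the one labelled ENSMUSG00000107137 held no counts. Brains were taken at E15.5 from Nsd2 KO males, WT males, Nsd2 KO females and WT females, with 3 libraries in each of the 4 groups and 12 in all. The KO mice had been made by CRISPR/Cas9 genome editing, and all mice had the C57BL/6 background.

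Wnt proteins are secreted, lipid-modified signals that bind a Frizzled receptor together with Lrp5 or Lrp6. In the canonical branch this stabilises beta-catenin, which enters the nucleus and acts with TCF/LEF factors on genes such as Axin2 and Lef1, while other branches steer cell polarity and movement. Sfrp proteins bind Wnts outside the cell, and Dkk1, Dkk2 and Dkk4 act on the coreceptors. In the embryonic brain, Wnt signals from the dorsal midline pattern the forebrain, Wnt1 marks the border of midbrain and hindbrain, and Wnt7a and Wnt7b act on the growing blood vessels.

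Nsd2, listed as Whsc1, had between 0.905 and 2.67 CPM (counts scaled to a common library size, with TMM correcting the sizes for their composition) in the 6 KO libraries and between 348 and 410 CPM in the 6 WT libraries. Library totals ran between 40398665 and 59304196 counts. The 8 neuronal markers summed to between 5882 and 6446 CPM and the 8 radial glia markers to between 1121 and 1354 CPM, and no gene of either list was at 0 in any library. The libraries differed in tissue markers within every group. The summed Hox genes, which mark the caudal hindbrain and the spinal cord, were between 74.4 and 299 CPM in 6 libraries (KO male 2, KO female 2 and 3, WT male 2 and 3, WT female 3) and between 1.16 and 26.7 CPM in the others. Markers of meningeal fibroblasts, the cells of the brain's coverings, summed to between 254 CPM in WT male 3 and 1326 CPM in WT male 2. RNA came from whole tissue, so fewer cells of a type and less RNA per cell cannot be told apart. The libraries were made with either of 2 versions of an rRNA depletion kit and run on either of 2 sequencers. Which library had which is not given in the sources used here, and a part of kit or sequencer in any result was not tested.

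Axin2 and Lef1 are the readouts of the pathway among the members, and the sequences before their starts are shown. TCF/LEF factors bind sites with a core such as CTTTGA, read on either strand (TCAAAG on the other). This form alone was searched and marked, so other forms of the site are not counted. Each run holds the 250 bases before a RefSeq start on build GRCm38.p6, plus strand, with the core in capitals. The Axin2 stretch is chr11:108920099-108920348, outside annotated exons. The Lef1 stretch is chr3:131156044-131156293, within the Lef1 gene but outside its annotated exons, before the most downstream of the 4 starts listed for it, and it was chosen because it is the 1 stretch of the 4 that holds the core.
Axin2: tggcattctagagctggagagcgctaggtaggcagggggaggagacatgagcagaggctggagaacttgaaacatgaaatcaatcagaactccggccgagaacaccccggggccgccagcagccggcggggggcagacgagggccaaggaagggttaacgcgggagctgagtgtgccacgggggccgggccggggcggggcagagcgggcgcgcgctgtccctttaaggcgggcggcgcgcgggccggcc
Lef1: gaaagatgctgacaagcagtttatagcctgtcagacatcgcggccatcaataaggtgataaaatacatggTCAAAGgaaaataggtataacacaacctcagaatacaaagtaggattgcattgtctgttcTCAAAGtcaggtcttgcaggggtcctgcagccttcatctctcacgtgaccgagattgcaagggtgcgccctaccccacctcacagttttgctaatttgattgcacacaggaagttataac
The core occurred 2 times in this Lef1 stretch, 0 times in the stretches before the other 3 Lef1 starts and 0 times before the single Axin2 start. RefSeq stretches were matched to 27 member symbols, and 5 of their 33 stretches held the core (15.2%), against 13.8% of all 32851 stretches of the same length. The members with a match were Dkk1, Fzd1, Lef1, Wnt11 and Wnt5b. A match describes letters only.

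Among the ligands, Wnt7b was the most abundant per length, with a mean of 20.6 CPM per kb of exon over the 12 libraries, or 48.4% of the summed level per kb of all ligands. Wnt7a followed with 7.33 CPM per kb, then Wnt5a, a ligand known mostly for the beta-catenin-independent branches, with 3.95 and Wnt3 with 2.92. No other ligand exceeded 1.27 CPM per kb, the level of Wnt4. Fzd1 led the receptors with 20.8 CPM per kb, followed by Fzd2 with 13.1 and Fzd3 with 11.99. Lrp6 had 8.68 and Lrp5 3.21 CPM per kb. Of the antagonists, Sfrp1 had 19.8 CPM per kb (47.5% of the antagonists' sum), Sfrp2 12.9 and Dkk3, a divergent Dkk gene, 7.10. Axin2 had 9.97 and Lef1 5.03 CPM per kb.

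Neighbours in that order often did not differ beyond their spread. Fzd1 was above Wnt7b in 7 of the 12 libraries, Wnt7b above Sfrp1 in 8 and Fzd2 above Sfrp2 in 6, whereas Sfrp1 was above Fzd2 in all 12. Of the 42 entries, 18 averaged at least 10 CPM, 12 between 1 and 10 CPM and 12 under 1 CPM. Wnt8a was at 0 in every library, where a count of 0 allows up to 3 counts, or between 0.0506 and 0.0743 CPM in a library. Wnt2 had 25 counts, Wnt10b 24 and Dkk4 8 in all libraries together. These 4 genes and the second Fzd6 entry fell below the filter, which left 37 of 42 entries tested in males and over both sexes and 36 in females, where Wnt16 was also below it. The limits from counts of 0 cover counting error only. In the annotation, 11 members, Axin2, Lef1, Fzd3, Wnt5a and Wnt7b among them, overlap a gene on the opposite strand and 3 (Fzd3, Lef1, Wnt2b) overlap one on the same strand. The strand setting of the counting is not given in the sources used here, so the levels of these members are uncertain by the share of reads such neighbours add.

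**Figure D1:**
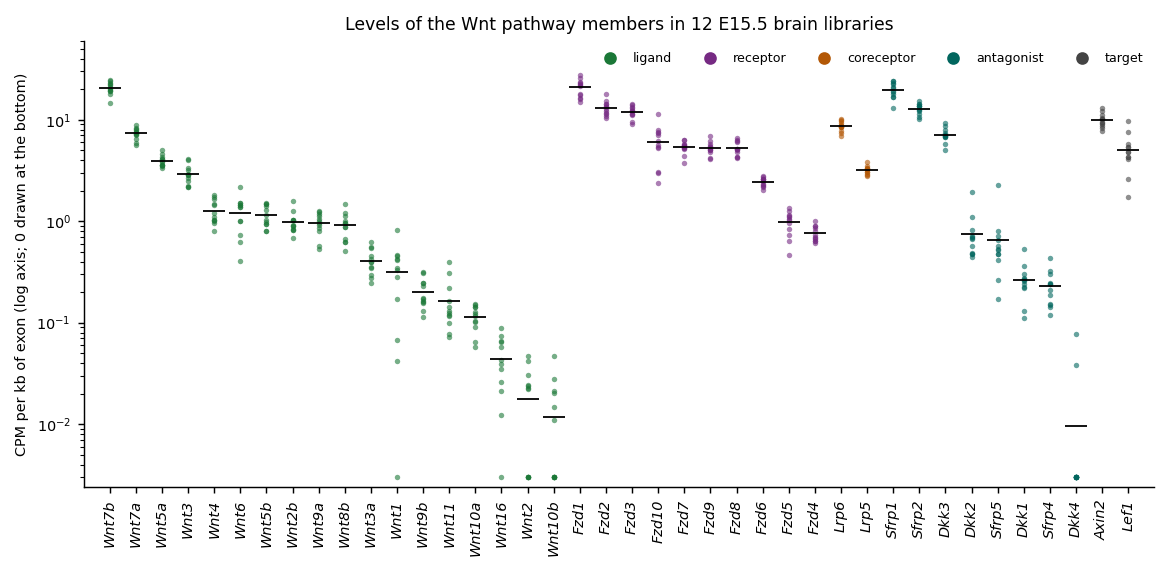
Level of each member with any count, in CPM per kb of exon on a log axis, with 1 point per library (n = 12), a bar at the mean and values of 0 drawn at the bottom edge. Wnt7b, Fzd1 and Sfrp1 stand near 20 CPM per kb, while most ligands lie near or under 1.

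The comparison of KO with WT asked whether loss of NSD2 changed the expression of these genes. None of the 37 members tested changed in KO males, none of 36 in KO females and none of 37 over both sexes at an adjusted p under 0.05 (edgeR's quasi-likelihood test with Benjamini-Hochberg adjustment over all genes). Of all genes tested, the same test called 0.461% in males (0.123% higher and 0.337% lower in KO), 0.016% in females (0.0107% higher and 0.00535% lower) and 1.89% over both sexes (0.374% higher and 1.52% lower). DESeq2 called no member in any of the 3 comparisons either. At an unadjusted p under 0.05 stood 9 of 37 members in males, 1 of 36 in females and 4 of 37 with the sexes combined, against 11.9%, 7.47% and 13.7% of all genes. The median member had a log2 fold change (KO over WT) of 0.11 in males, 0.05 in females and 0.07 with the sexes combined, beside medians of -0.0051, 0.0073 and 0.0022 over all genes. These data do not show equal levels: over both sexes the 95% interval of the log2 fold change lay within 1 unit of 0 for 32 of 37 members and within 0.5 for 15.

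**Figure D2:**
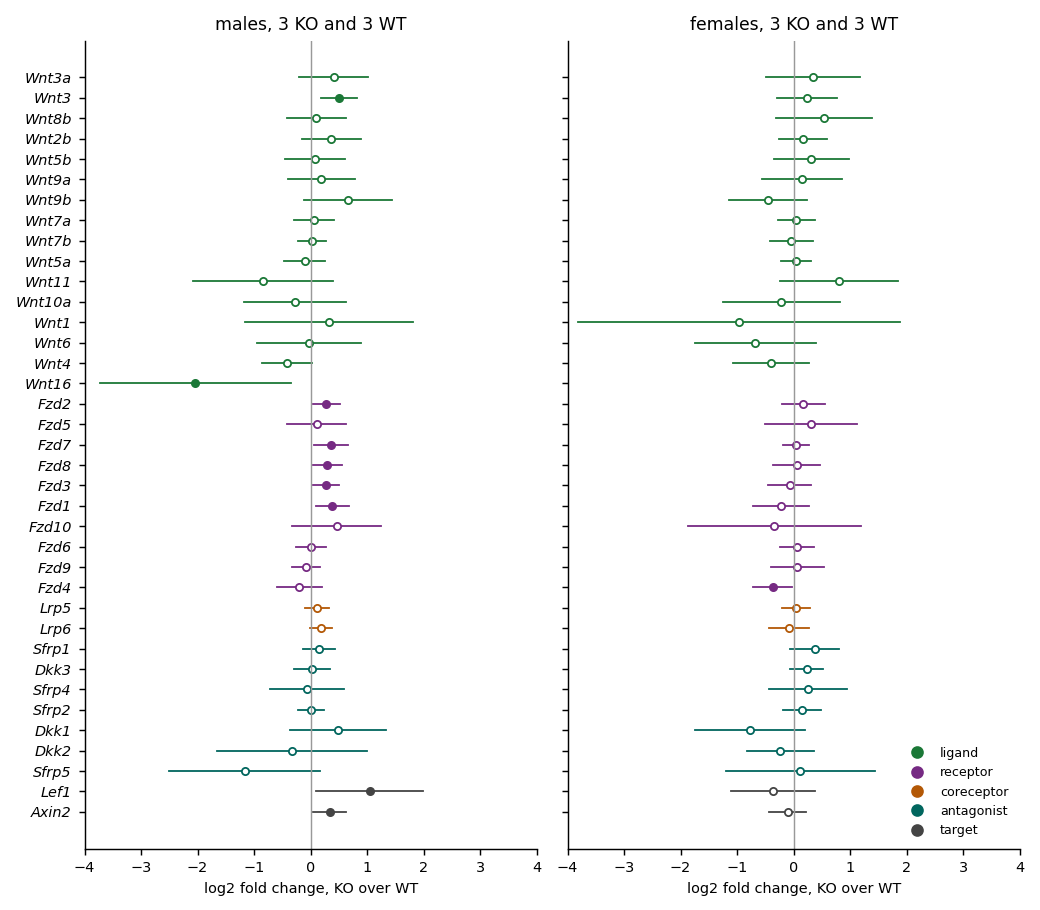
Log2 fold change of KO over WT for the 37 members tested in males (left) and the 36 tested in females (right), with 95% intervals from edgeR, coloured by role and ordered within role by the fit over both sexes; filled points have an unadjusted p under 0.05, and no member passed after adjustment. In males 8 of the 9 filled points lie above 0, 5 of them Frizzled receptors.

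Wnt3, a canonical ligand, had the smallest p of all members in males. It had 9.93, 10.3 and 12.5 CPM in KO males, against 8.81, 7.64 and 6.75 CPM in WT males. All 3 KO males lay above all 3 WT males, and the log2 fold change was 0.50 ± 0.14 (SE, n = 3 each, edgeR adjusted p = 0.24). In females it had 6.68, 8.76 and 12.6 CPM in KO, against 8.96, 6.79 and 8.21 CPM in WT, and the groups overlapped (0.23 ± 0.23, edgeR adjusted p = 0.85). Over both sexes the log2 fold change of Wnt3 was 0.36 ± 0.14 (edgeR adjusted p = 0.28).

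Wnt16, a ligand of low level in this tissue, had counts of 3, 0 and 10 in KO males, against 18, 23 and 14 in WT males. Every KO male was below every WT male. In females its counts were 5, 8 and 5 in KO, against 16, 6 and 17 in WT, too low for the female test, and the groups overlapped. Over both sexes its log2 fold change was -1.47 ± 0.51 (edgeR adjusted p = 0.21). With 125 counts in all 12 libraries, depth limits what can be said of Wnt16.

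Wnt7b averaged 108 ± 5.38 CPM in KO males and 106 ± 16.1 CPM in WT males (SD, n = 3 each), and 93.6 ± 22.9 CPM in KO females and 96.1 ± 3.07 CPM in WT females. Over both sexes its log2 fold change was -0.01, with a 95% interval between -0.23 and 0.21. Wnt4, named after its values were seen, had 4.20, 4.31 and 5.08 CPM in KO males, against 6.02, 7.61 and 4.58 CPM in WT males. Its KO and WT ranges overlapped in males and in females, and over both sexes its log2 fold change was -0.41 ± 0.18 (edgeR adjusted p = 0.34). With the summed markers of meningeal fibroblasts as a covariate, the Wnt4 value was -0.23 ± 0.11 over both sexes, -0.27 ± 0.12 in males and -0.12 ± 0.15 in females. The covariate did not shrink every value. Over both sexes Wnt9a was 0.42 ± 0.13 with it (edgeR adjusted p = 0.20), beside 0.17 ± 0.21 without it (edgeR adjusted p = 0.80).

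The receptors made up 5 of the 9 members with an unadjusted p under 0.05 in males, where 11.9% of all genes had one. Fzd1, Fzd2, Fzd3, Fzd7 and Fzd8 had log2 fold changes between 0.27 and 0.38 there, each with an unadjusted p under 0.05 and an edgeR adjusted p between 0.32 and 0.36. With the spread between libraries taken over all 12, 5 of 37 members were under 0.05 in males, as were 1716 of 19768 genes. Of these receptors only Fzd7 was then under it (edgeR unadjusted p = 0.013), and the others had an edgeR unadjusted p between 0.078 and 0.099. Fzd1 had 94.98, 93.2 and 97.1 CPM in KO males, against 89.7, 63.3 and 66.4 CPM in WT males. The KO males were close together and all above the WT males, of which WT male 1 was nearest (0.38 ± 0.13, edgeR adjusted p = 0.32). In females Fzd1 had 72.9, 69.2 and 108 CPM in KO, against 117, 98.9 and 75.8 CPM in WT, with overlap (-0.22 ± 0.21, edgeR adjusted p = 0.84).

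Fzd3, which works in the polarity branch and in axon guidance and was named after its values were seen, had 180, 156 and 168 CPM in KO males, against 155, 144 and 121 CPM in WT males. Here too every KO male was above every WT male, though KO male 2 and WT male 1 were nearly level. Fzd2 had 56.0, 44.2 and 52.4 CPM in KO males, against 46.4, 38.5 and 41.3 CPM in WT males, and KO male 2 fell among the WT values. In females Fzd2 had 49.7, 42.7 and 65.5 CPM in KO, against 39.9, 52.3 and 48.4 CPM in WT. Its log2 fold change over both sexes was 0.22 ± 0.10 (edgeR adjusted p = 0.38).

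Fzd4, the receptor of Norrin on blood vessels, had the smallest p of all members in females. It had 4.31, 4.06 and 4.27 CPM in KO females, against 6.03, 4.93 and 5.38 CPM in WT females, so that every KO female was below every WT female (-0.37 ± 0.15, edgeR adjusted p = 0.63). In males it had 4.55, 4.72 and 5.73 CPM in KO, against 6.04, 6.71 and 4.53 CPM in WT, with overlap. Over both sexes the log2 fold change of Fzd4 was -0.29 ± 0.11 (edgeR adjusted p = 0.27). The summed markers of endothelial cells, in which Fzd4 is best known, were between 315 and 340 CPM in KO females and between 262 and 379 CPM in WT females. Across the 12 libraries, with sex and genotype held fixed, Fzd4 rose by 0.78 ± 0.34 on the log2 scale for each doubling of these markers (edgeR adjusted p = 0.62). For each doubling of the meningeal markers it rose by 0.21 ± 0.07 (edgeR adjusted p = 0.22). With those markers as a covariate, the log2 fold change of Fzd4 was -0.20 ± 0.09 over both sexes, -0.09 ± 0.13 in males and -0.33 ± 0.16 in females. The part of either tissue in the difference of Fzd4 between KO and WT was not tested.

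The coreceptors had narrow intervals. Lrp6 averaged 126 ± 9.98 CPM in KO males and 112 ± 10.02 CPM in WT males, and 115 ± 8.14 CPM in KO females and 122 ± 24.9 CPM in WT females (SD, n = 3 each). Its log2 fold change over both sexes was 0.04, with a 95% interval between -0.16 and 0.25. Lrp5 averaged 33.6 ± 3.52 CPM in KO males and 31.2 ± 2.22 CPM in WT males, and 30.4 ± 3.57 CPM in KO females and 29.6 ± 1.95 CPM in WT females, with a log2 fold change over both sexes of 0.07 (95% interval between -0.08 and 0.23).

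Among the antagonists, Sfrp1 had 106, 73.2 and 92.1 CPM in KO males, against 83.7, 78.7 and 82.5 CPM in WT males. In females it had 105, 90.1 and 101 CPM in KO, against 56.7, 98.8 and 73.5 CPM in WT. The ranges overlapped in both sexes, and over both sexes the log2 fold change was 0.26 ± 0.12 (edgeR adjusted p = 0.38). Sfrp5 averaged 0.96 ± 0.10 CPM in KO males and 2.17 ± 1.83 CPM in WT males, where WT male 2 alone had 4.28 CPM. That library also had the highest meningeal marker sum and the highest Dkk2 (7.11 CPM) and Wnt11 (1.64 CPM) of all 12.

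Both targets averaged higher in KO males than in WT males, and neither passed the test. Lef1, itself a TCF/LEF factor, had 46.8, 42.0 and 66.5 CPM in KO males, against 37.6, 22.6 and 15.3 CPM in WT males. All KO males were above all WT males (1.04 ± 0.37, edgeR adjusted p = 0.38). In females it had 38.0, 42.7 and 50.3 CPM in KO, against 85.3, 47.2 and 35.9 CPM in WT, with WT female 1 far above the others (-0.37 ± 0.31, edgeR adjusted p = 0.82). Axin2 had 50.4, 57.5 and 71.1 CPM in KO males, against 50.9, 48.0 and 42.9 CPM in WT males, where KO male 1 fell below WT male 1 (0.34 ± 0.13, edgeR adjusted p = 0.37). Axin2, a feedback inhibitor that promotes the breakdown of beta-catenin, averaged 54.2 ± 8.23 CPM in KO females and 58.3 ± 8.24 CPM in WT females (SD, n = 3 each).

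**Figure D3:**
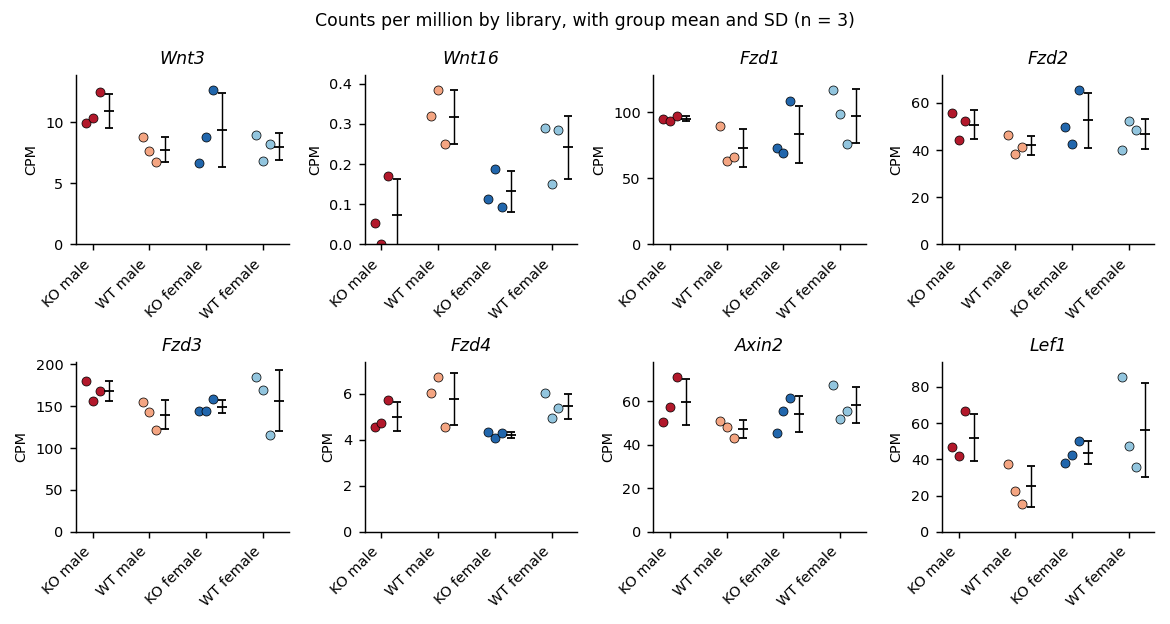
CPM of Wnt3, Wnt16, Fzd1, Fzd2, Fzd3, Fzd4, Axin2 and Lef1 in each library (points) with the group mean and SD (bars, n = 3), for KO male, WT male, KO female and WT female. Fzd1, Fzd3, Lef1 and Wnt3 lie higher in every KO male than in any WT male, Wnt16 lies lower in every KO male, and Fzd4 lies lower in every KO female than in any WT female.

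Few members separated the genotypes completely. In males 4 of 37 members (Fzd1, Fzd3, Lef1 and Wnt3) had every KO library above every WT library, and 8.47% of all genes did. Wnt16 alone had every KO male below every WT male, and 8.82% of all genes did. In females no member had every KO library above every WT library, against 7.79% of all genes, and Fzd4 alone had every KO library below, against 6.19%. No member was separated in both sexes. The share of all genes separated in both was not counted, so this is not read as a trait of the members.

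The summed Hox genes were 7.86, 74.4 and 1.16 CPM in KO males, against 26.7, 238 and 278 CPM in WT males. KO males 1 and 3 lay below every WT male, and KO male 2 lay above WT male 1 only. Hox level and genotype are thus partly tied in males, and a fit with both cannot fully tell them apart. None of the 19 Hox genes tested in males was called, and the part of caudal tissue in the male values was not tested. With the Hox level as a covariate, 1 member (Wnt16) rather than 9 had an unadjusted p under 0.05 in males. The number over all genes fell too, from 2230 to 589 of 18672 tested, so the drop is not particular to the members. Of those 9, Wnt16 had a log2 fold change of -3.44 ± 1.08 with the covariate, beside -2.05 ± 0.74 without it. The other 8 had values between 0.08 (Fzd2) and 0.45 (Lef1) with it, beside values between 0.27 (Fzd3) and 1.04 (Lef1) without it, and Fzd7 had 0.29 ± 0.19 beside 0.36 ± 0.13. Over both sexes the covariate left Lef1 at 0.35 ± 0.25, beside 0.34 ± 0.35 without it, and Fzd1 at 0.08 ± 0.14, beside 0.08 ± 0.16. Within the 6 libraries with under 1 CPM of Hoxa5, over both sexes, the log2 fold change of Lef1 was -0.10 ± 0.51 and that of Fzd1 -0.23 ± 0.16.

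Whether KO and WT differed unequally in males and females was asked with a term for the interaction of sex and genotype. No member and no other gene passed (edgeR, 0% of all genes), and DESeq2 called no member. At an unadjusted p under 0.05 stood 3 of 37 members, against 4.45% of all genes. They were Lef1 (male minus female difference of log2 fold changes 1.40 ± 0.53), Wnt9b (1.11 ± 0.47) and Wnt11 (-1.65 ± 0.75), each with an edgeR adjusted p of 0.91. The opposite signs of Lef1 in the sexes are therefore not shown to differ.

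Across all 12 libraries, with sex and genotype held fixed, members were next read against the caudal Hox level. No member passed (edgeR, with 2.8% of all genes called, 1.26% upward and 1.53% downward), and 7 of 37 had an unadjusted p under 0.05, against 20.2% of all genes. Lrp6 came closest, with a log2 slope of -0.04 ± 0.01 for each doubling of the Hox sum (edgeR adjusted p = 0.064). Fzd3 (-0.05 ± 0.01) had an edgeR adjusted p of 0.075, as did Sfrp2 (0.04 ± 0.01) and Wnt5b (0.09 ± 0.03). These slopes passed or failed with single libraries left out. Without KO female 3, Lrp6, Fzd3 and Fzd1 were called, and without KO female 1, Lrp6, Fzd3 and Lef1. Without WT male 2, Lrp6 was called, and without WT male 3, Sfrp2 and Wnt5b. Calls over all genes moved too, from 250 upward and 303 downward of 19768 in the full fit. They were 766 and 792 of 20241 without KO female 3 and 325 and 450 of 20154 without KO female 1. Without WT male 2 they were 275 and 331 of 20190, and without WT male 3 180 and 175 of 20218. With other single libraries left out they were fewer than in the full fit, down to 55 and 4 of 20160 without WT female 2.

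Members were also read against the markers of 5 tissues or cell types, a comparison added after the data had been seen. Against the summed meningeal markers, 3 of 37 members passed (edgeR, with 1.69% of all genes called, 1.58% upward and 0.116% downward). Wnt4, a ligand best known from kidney and gonad development, rose by 0.43 ± 0.08 on the log2 scale for each doubling of the markers (adjusted p = 0.019), and Wnt9a by 0.50 ± 0.10 (adjusted p = 0.026). Wnt7a, which neural progenitors are known to make, decreased by 0.27 ± 0.05 on the log2 scale (adjusted p = 0.0080). In WT male 2, with the most meningeal marker RNA, Wnt4 was 7.61 CPM and Wnt7a 18.1 CPM, the highest and the lowest of the 12 libraries. In WT male 3, with the least, Wnt7a was 28.2 CPM, the highest of all. Wnt6 (0.76 ± 0.19), Dkk2 (0.64 ± 0.16) and Wnt5a (0.22 ± 0.05) had positive slopes that did not pass (adjusted p between 0.057 and 0.081).

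Against the summed telencephalon markers, which ranged between 526 and 948 CPM, 3 of 37 members passed (edgeR, with 1.64% of all genes called, 0.809% upward and 0.835% downward). Wnt7a rose by 0.69 ± 0.11 on the log2 scale for each doubling (adjusted p = 0.014). Wnt9a decreased by 1.31 ± 0.22 on the log2 scale (adjusted p = 0.017), and Wnt5a by 0.61 ± 0.11 (adjusted p = 0.023). WT male 2 had the lowest telencephalon sum as well as the highest meningeal sum, so the slopes on the 2 lists rest in part on the same libraries and cannot be told apart. Without WT male 2, the meningeal slope was called for Wnt6 only and the telencephalon slope for Sfrp1 only, and without WT female 2, the telencephalon slope was called for no member. Calls over all genes fell in these fits as well. The meningeal slope was called upward for 120 genes and downward for 2 without WT male 2, beside 312 and 23 in the full fit. The telencephalon slope was called for 17 and 8 without WT male 2 and for 1 and 5 without WT female 2, beside 160 and 165. No member passed against markers of midbrain and rostral hindbrain (0.0911% of all genes called, 0.0556% upward and 0.0354% downward, with 5.94% at an unadjusted p under 0.05), choroid plexus (0.147%) or endothelium (0.0101%). At an unadjusted p under 0.05 stood 5 of 37 members on midbrain and hindbrain markers, 7 on choroid plexus and 10 on endothelium. The shares of all genes were 5.94%, 11.1% and 7.61%. On the meningeal and telencephalon markers 11 and 15 of 37 members stood there, where 11.9% and 14.9% of all genes did. On the midbrain and hindbrain markers, Fzd10 had a slope of 1.99 ± 0.43 (adjusted p = 0.22).

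**Figure D4:**
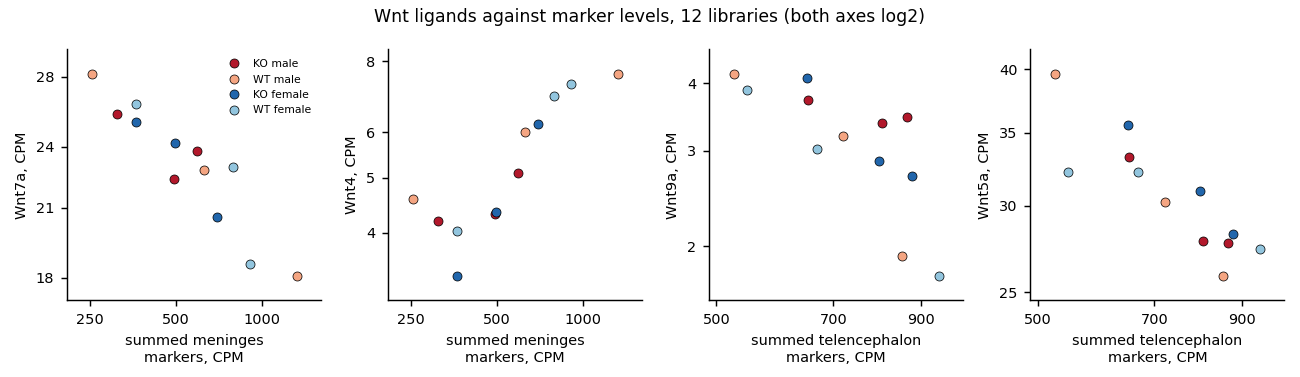
CPM of Wnt7a and Wnt4 against the summed meningeal markers, and of Wnt9a and Wnt5a against the summed telencephalon markers, 1 point per library coloured by group, both axes log2. Wnt7a falls and Wnt4 rises with the meningeal sum, and Wnt9a and Wnt5a fall with the telencephalon sum.

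Members also differed in how much they varied between libraries of a group. The SD of log2 CPM within groups had a median of 0.21 over the 18 members with at least 10 CPM, beside 0.12 over 10221 genes at that level. Fzd10 was the most variable of the 18 (SD 0.74, above 99.1% of those genes), with 18.4, 25.8 and 24.3 CPM in KO males, 23.2, 17.1 and 9.67 CPM in WT males, 9.99, 17.4 and 23.8 CPM in KO females and 36.9, 7.74 and 19.97 CPM in WT females. Lef1 came next (SD 0.50, above 98.1%), and Lrp5 was the least variable (SD 0.13, above 58.2%).

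No pair of members passed a test of varying together within groups, but a lone pair could not have passed it. The 595 pairs among the 35 members with a mean of at least 0.5 CPM were compared by deviations from the group means over 12 libraries, which share depth and tissue make-up. The pairs given here are some of those with the largest absolute r, picked after the values were seen. Not drawn are Dkk2 and Fzd7 (r = 0.92, exact permutation p = 0.0069) and Fzd4 and Fzd6 (r = 0.88, exact permutation p = 0.00077). Fzd2 and Fzd8 had a Pearson r of 0.98 and a Spearman rho of 0.98 (exact permutation within groups, p = 0.00077 for each, the smallest that 1296 permutations give). Their r was 0.97 without the 2 libraries farthest from the median of Fzd2. In each pair only the first gene named set which 2 libraries were left out. Fzd10 and Wnt1 had r = 0.91 and rho = 0.89 (exact permutation p = 0.00077 for each), and 0.91 without the 2 farthest. Fzd3 and Lrp6 had r = 0.93 and rho = 0.91 (exact permutation p = 0.012 and 0.0077), and 0.88 without the 2 farthest. The smallest adjusted p over the 595 pairs was 0.15. Even the smallest p that 1296 permutations give exceeds 0.05 after this adjustment unless many pairs reach it. The lack of calls therefore does not show that members varied independently. Wnt7a and Wnt9a ran opposite to each other, with r = -0.94 and rho = -0.87 (exact permutation p = 0.0054 and 0.0069, adjusted p = 0.16 for r), and -0.91 without the 2 farthest.

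**Figure D5:**
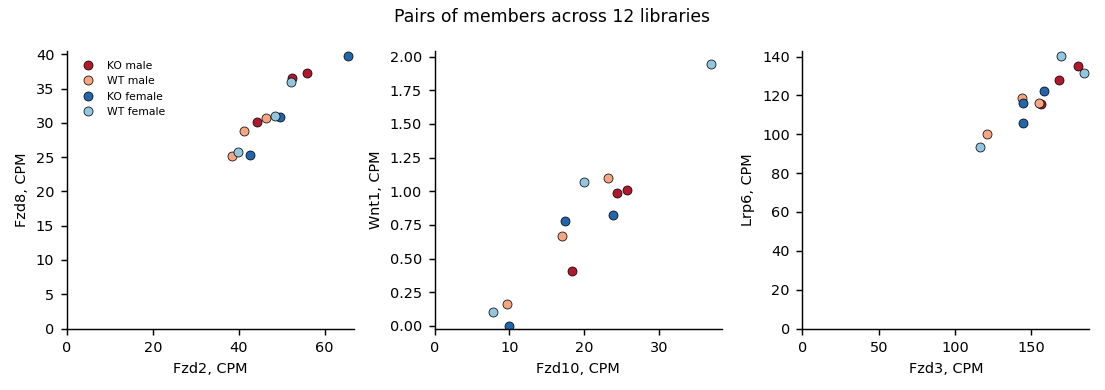
CPM of Fzd8 against Fzd2, Wnt1 against Fzd10 and Lrp6 against Fzd3, 1 point per library coloured by group. Within-group deviations of Fzd2 and Fzd8 had r = 0.98, those of Fzd10 and Wnt1 0.91 and those of Fzd3 and Lrp6 0.93. None of 595 pairs passed adjustment, which no lone pair could pass.

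The rest of the pathway showed no call on genotype either. Of 89 genes listed for Wnt secretion and modulation, surface partners, cytoplasmic and nuclear steps, planar polarity and feedback, 85 were tested in each sex and 86 over both sexes, and none passed (edgeR adjusted p, smallest 0.074 in males, 0.52 in females and 0.11 with the sexes combined). At an unadjusted p under 0.05 stood 18 in males (21.2%), 3 in females (3.53%) and 16 with the sexes combined (18.6%), against 11.9%, 7.47% and 13.7% of all genes. Tcf7l2, a nuclear partner of beta-catenin, came closest in males with a log2 fold change of 0.68 ± 0.12 (edgeR adjusted p = 0.074), beside -0.43 ± 0.28 in females (edgeR adjusted p = 0.76). Over both sexes Rspo1, a secreted enhancer of Wnt signalling, came closest with 0.55 ± 0.15 (edgeR adjusted p = 0.11). Ctnnb1, which encodes beta-catenin, had 0.18 ± 0.07 (edgeR adjusted p = 0.27). On the caudal Hox level, 7 of the 86 passed, 1 upward and 6 downward, where 1.26% of all genes were called upward and 1.53% downward. Frzb, a secreted Wnt antagonist, rose by 0.16 ± 0.02 on the log2 scale for each doubling of the Hox sum (edgeR adjusted p = 0.00079), and Bcl9, Bcl9l, Tnik, Gsk3b, Apc and Celsr3 decreased by between 0.04 and 0.07 on the log2 scale (edgeR adjusted p between 0.017 and 0.042). How these 7 calls hold with single libraries left out is not given here. Over all genes, calls fell from 250 upward and 303 downward to 55 and 4 without WT female 2. With Hoxa5 alone in place of the Hox sum they were 92 and 16.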

How the data were processed

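RNA-seq libraries of E15.5 brains were compared, 3 for each genotype and sex. The authors deposited unnormalized gene-level read counts. Reads had been cut to 75 bp (FASTX-toolkit 0.0.14), freed of adapters (cutadapt 2.6) and aligned to GRCm38 (mm10) by HISAT2 2.1.0. StringTie 2.0.6 with the Ensembl 81 annotation, and its own script, gave the counts. Such counts derive from coverage, and PCR copies remain in them. Totals ranged between 40398665 and 59304196.

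Counts were filtered with filterByExpr (at least 10 scaled counts in 3 libraries and 15 in total), normalized by TMM and fitted with edgeR 4.0.16 in R 4.3.3 (robust quasi-likelihood F test, Benjamini-Hochberg over all genes, threshold 0.05): KO over WT in each sex, over both sexes with sex as a covariate, their interaction, and slopes on log2 of summed marker CPM plus 1. Whsc1 was left out of background counts. Whether the 3 libraries of a group came from separate litters is not stated. Exon lengths and overlaps came from GENCODE M 21. Members named by rule are those called on genotype, interaction or Hox level, the 2 with the smallest p over both sexes and the most abundant per kb in each role. Others (such as Fzd3, Fzd7, Fzd8, Fzd10, Wnt4 and members called on markers) were named after their values were seen. The members and lists were chosen with earlier results of these data known. Alternatives were RLE, DESeq2 1.42.0, other filters, the replicate block, the spread over all 12 libraries for the fits in 1 sex, covariates, subsets and each library left out. The steps were tested on simulated data. The exact two-sided permutation p for totals of KO against WT was 0.4 in males and 0.6 in females (0.1 is the smallest possible). Figures were drawn with matplotlib 3.10.9.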

Additional observations from a re-analysis of the deposited data

How the results depend on the processing

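No member was called on genotype under any setting run, with 2 exceptions in males: Fzd1 without WT male replicate 1 (adjusted p = 0.021) and Fzd7 with the meningeal marker level as a covariate (1 member called, adjusted p = 0.049). The number of members called ran between 0 and 1 in males with single libraries left out, and was 0 in females and over both sexes. For the slopes it ran between 0 and 3 on the caudal Hox level, 1 and 4 on the meningeal markers, 0 and 3 on the telencephalon markers and 0 and 1 on the midbrain and hindbrain markers (Fzd10 without KO male replicate 3). Meningeal calls fell to 1 without WT female 2, WT male 2 or WT male 3, and telencephalon calls to 1 without WT male 2 or WT male 3 and to 0 without WT female 2. Calls over all genes fell in each of these fits too. Covariates on markers and slopes on markers other than Hox were chosen after seeing the data.

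Some values changed sign, Lef1 (0.34) and Sfrp5 (-0.56) over both sexes and Lef1 in females (-0.37) among them, and the cause was not tested. With the Hox level as a covariate, log2 fold changes in males were -0.040 for Lrp5, -0.045 for Sfrp1 and -0.064 for Wnt7b, and in females 0.082 for Lrp6 and -0.048 for Sfrp5. With the meningeal covariate Wnt7b in males was -0.027 and Lrp5 in females -0.034. With the telencephalon covariate they were -0.054 and -0.0012. Sfrp5 in females was -0.20 with the midbrain and hindbrain covariate. Within libraries under 1 CPM of Hoxa5, over both sexes, the log2 fold change was -0.062 for Axin2, -0.23 for Fzd1, -0.10 for Lef1, -0.016 for Lrp6 and 0.42 for Sfrp5. With single libraries left out, values in females ran between -0.20 and 0.016 for Axin2, -0.016 and 0.30 for Fzd2, -0.61 and 0.073 for Lef1, -0.052 and 0.11 for Lrp5, -0.25 and 0.024 for Lrp6, -0.28 and 0.79 for Sfrp5, -0.047 and 0.42 for Wnt3 and -0.22 and 0.12 for Wnt7b. In males Wnt7b ran between -0.10 and 0.12, and over both sexes Wnt7b between -0.086 and 0.068 and Lrp6 between -0.0087 and 0.11. In all, 35 of 731 alternative values of the 16 members followed changed sign.

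The titles give KO and WT libraries the same replicate numbers. Deviations of same-numbered libraries had correlations between -0.04 and 0.18 in males and between -0.05 and 0.19 in females, so the numbers were not taken to pair them. With the replicate number as a block, 0 members were called in either sex or over both. Of all genes, 70 were called higher and 219 lower in males, 0 in females, and 44 and 227 over both. At an unadjusted p under 0.05 stood 8 members in males, 0 in females and 3 over both. Of all genes, 2981 of 18672 in males, 1044 of 18710 in females and 2610 of 19768 over both did.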
